A study of Mus musculus with 18 samples.

Results

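Il10 stood higher in every treated than in every untreated library in 2 of 3 sorted fractions of liver immune cells, and Il21 in 1. Ifng, Tnf, Il2, Csf2 and Il4 did not pass the test for treatment in any fraction where they could be tested. That test called 0% of all genes in CD3+CD8+ and in CD3+CD8- cells. It was not applied to Il10 and Il21, so these results do not set the 5 genes apart from those 2. Over all genes, treated and untreated libraries did not overlap for 10% in CD3+CD8+ cells and 45.4% in CD3-CD8- cells, the 2 fractions concerned, and since Il10 and Il21 were chosen for these differences nothing is read from their place among them. The genes described here are 8 rows of the count table, Il10, Il21, Ifng, Tnf, Il2, Csf2, Il4 and Maf, of 48440 gene identifiers in all, found by their symbols. Il10 and Il21 were chosen from their measured treated-against-untreated differences in these libraries, so those differences are given as a description with no test. Maf was added as a known inducer of both, and the other 5 genes as the usual cytokines of effector lymphocytes. Of the 8 members, 5 had enough counts to be fitted for treatment in CD3+CD8+ cells, 6 in CD3+CD8- cells and 8 in CD3-CD8- cells, and all 8 could be compared between fractions.

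The study raised liver tumours in wild-type C57BL/6J mice by injecting Ras and Myc oncogenes hydrodynamically through the tail vein, and sorted CD45+ immune cells from the livers into 3 fractions for RNA sequencing. The mice came at 7 weeks of age and had 1 week to adapt. The treated groups received PolyIC, a double-stranded RNA mimic, at 4 mg/kg and 200 µg of anti PD-L1, an antibody that blocks a checkpoint ligand, in 6 doses every other day into the peritoneum; the labels' protocol also lists an anti-VEGF-A antibody that the treatment label of these libraries does not name. The 6 groups of 3 libraries are treated CD3+CD8+, untreated CD3+CD8+, treated CD3+CD8-, untreated CD3+CD8-, treated CD3-CD8- and untreated CD3-CD8-, all from tumour-bearing mice, so that no tumour-free liver is among them. The name letters of treated library 19 in each fraction and of untreated CD3+CD8- library 6 differ from those of the rest of their treatment, which the labels do not explain. Libraries are called by the number in their names, which was 2, 11 and 19 in each treated group; the labels do not say whether a number marks an animal, so p-values measure the spread between these libraries.

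IL-10 is a dimeric cytokine that acts through IL-10RA and IL-10RB on STAT3 and restrains antigen presentation and inflammatory cytokine output; type 1 regulatory T cells, strongly stimulated effector T cells, B cells and macrophages are known sources. IL-21, made mainly by follicular helper T cells and other activated CD4 T cells, signals through IL-21R and the common gamma chain, also to STAT3, and sustains B cells and CD8 T cells during chronic stimulation. The transcription factor c-Maf, encoded by Maf, is known to induce Il10, Il21 and Il4 in T cells. IFN-gamma and TNF are the main effector cytokines of cytotoxic and type 1 helper T cells, IL-2 and GM-CSF (Csf2) mark freshly activated T cells, and IL-4 is the cytokine of type 2 helper cells, basophils and invariant NKT cells.

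Library totals lay between 1829155 and 28233682 counts. In 3 libraries, untreated CD3+CD8+ 1 and 18 and treated CD3+CD8- 2, over 50% of the counts fell on 5 ribosomal loci, which left between 486461 and 1654913 counts elsewhere and made low genes hard to read there. The headers of the count columns carry L02 or L03, which the labels do not explain, and every group held both. All 3 of these libraries carried L03, and untreated CD3-CD8- library 5 alone did so in its group. The part of this code in the values was not tested. The fraction sorted as CD3-CD8- held T cell transcripts: the 9 T cell markers summed to between 3335 and 4858 CPM in treated CD3-CD8- libraries, against between 652 and 1644 CPM in untreated ones, beside 3561 to 4333 CPM in treated CD3+CD8+ libraries. Cd8a and Cd8b1 summed to between 767 and 1420 CPM in treated and between 101 and 463 CPM in untreated CD3-CD8- libraries. Its 6 B cell markers summed to between 1195 and 1636 CPM in treated and between 1964 and 2651 CPM in untreated libraries. Of the untreated CD3+CD8- libraries, number 6 held 1191 CPM of the CD8 genes, against 22.9 and 23.4 CPM in the other two. CPM values are counts scaled to library size by TMM over the 18 libraries. One untreated CD3+CD8+ library held 1179 CPM of the B cell markers. In such sorted mixtures, fewer cells of a type and less RNA per cell cannot be told apart.

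Because Maf is known to induce Il21 and Il4, the promoters of these genes are shown beside that of Il2, which lies next to Il21 on chromosome 3. Each window is 250 bases before to 50 bases after the gene's start on the transcribed strand, taken from RefSeq on GRCm38.p6, and positions are counted from the start. RefSeq windows were found for 6 of the 8 members, not for Il10 and Maf. Capitals mark TGCTGA, the MAF half-site, and GGAAA, the core bound by NFAT, a factor activated by antigen receptor signalling; both strands were searched, so TCAGCA and TTTCC are the same motifs read on the other strand. These were on chromosome 3 at 37232587 to 37232886 for Il21 and at 37125905 to 37126204 for Il2, and on chromosome 11 at 53618616 to 53618915 for Il4, all on the minus strand.
Il21: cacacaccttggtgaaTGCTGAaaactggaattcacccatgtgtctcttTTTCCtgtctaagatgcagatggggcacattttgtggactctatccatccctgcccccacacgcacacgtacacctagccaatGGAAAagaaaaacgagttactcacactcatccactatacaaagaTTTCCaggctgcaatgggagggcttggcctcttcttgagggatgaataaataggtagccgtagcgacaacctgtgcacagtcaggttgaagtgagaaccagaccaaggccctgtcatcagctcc
Il2: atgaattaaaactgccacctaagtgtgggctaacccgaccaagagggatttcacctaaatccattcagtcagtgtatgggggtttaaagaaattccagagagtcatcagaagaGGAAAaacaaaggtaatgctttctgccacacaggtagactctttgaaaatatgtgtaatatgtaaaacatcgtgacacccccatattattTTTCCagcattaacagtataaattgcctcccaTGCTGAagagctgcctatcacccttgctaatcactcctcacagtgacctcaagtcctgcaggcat
Il4: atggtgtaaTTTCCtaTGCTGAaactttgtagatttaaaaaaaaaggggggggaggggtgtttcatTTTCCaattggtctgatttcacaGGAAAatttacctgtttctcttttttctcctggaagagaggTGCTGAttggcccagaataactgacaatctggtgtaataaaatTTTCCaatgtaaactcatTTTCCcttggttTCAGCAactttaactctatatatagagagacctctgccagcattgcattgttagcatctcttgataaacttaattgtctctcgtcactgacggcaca
The Il21 window held 1 MAF half-site at -234 and NFAT cores at -201, -118 and -74. The Il2 window held 1 half-site at -15 and cores at -137 and -47. The Il4 window held 3 half-sites, at -234, -120 and -47, and 5 cores. The half-site occurs in 19.5% and the core in 61.3% of 32817 RefSeq promoter windows of the same length, so matches to the core are common. No half-site was found in the windows of Ifng, Tnf and Csf2, nor in that of a second Il4 start. None of the windows shown held TGANTCA, the AP-1 motif found in 7.8% of windows, or TTCNNNGAA, the STAT motif found in 8.3%.

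Il10, on chromosome 1 at 131019845 to 131024974, had 12.2, 14.0 and 10.7 CPM in treated CD3+CD8+ libraries 11, 2 and 19, against 0, 2.82 and 0 CPM in untreated CD3+CD8+ libraries 1, 5 and 18. Every treated library lay above every untreated one, but the 2 zeros came from the ribosome-rich libraries, in which 3 counts would have read as 3.78 and 5.57 CPM. In treated CD3-CD8- libraries 2, 11 and 19 it had 21.6, 10.7 and 10.4 CPM, against 1.501, 1.59 and 0.724 CPM in untreated CD3-CD8- libraries 1, 5 and 18. These groups did not overlap and no library there had fewer than 9 Il10 counts. In CD3+CD8- cells the values were 42.2, 17.4 and 5.31 CPM in treated libraries 11, 2 and 19, against 17.8, 0.787 and 4.05 CPM in untreated libraries 5, 18 and 6, so the groups overlapped. As a description, the log2 fold change of treated over untreated was 2.69 (SE 0.71) in CD3+CD8+ cells, 1.37 (SE 0.95) in CD3+CD8- cells and 3.44 (SE 0.42) in CD3-CD8- cells. The value in CD3+CD8+ cells rests on untreated library 5, the only one with Il10 counts, and was 9.58 without it, a fitted value against libraries at 0 and no bound, and in CD3+CD8- cells it was 3.21 without untreated library 5 and 0.45 without treated library 11. The Il10 values by group and library stand in the first panel of the plot of levels.

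**Figure D1:**
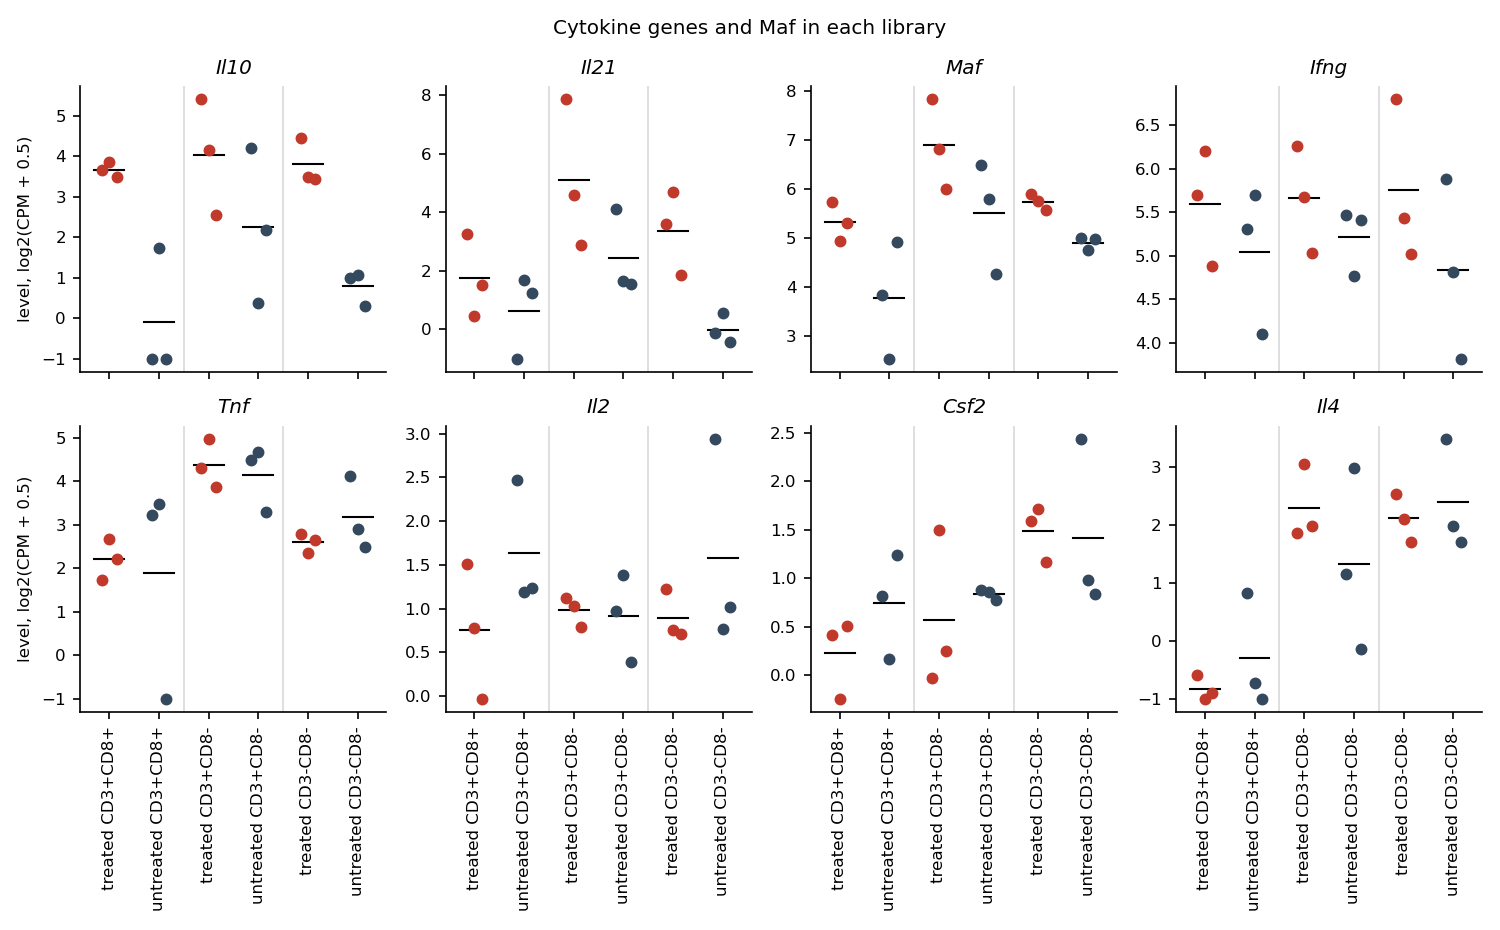
Levels of the 8 genes in each of 18 libraries, as log2(CPM + 0.5) on the vertical axis, with the 6 groups along the horizontal axis. Points are libraries, red for treated and dark blue for untreated, and bars are means of 3. All 3 treated points lie above all 3 untreated points for Il10 and Maf in CD3+CD8+ cells and for Il10, Il21 and Maf in CD3-CD8- cells.

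Il21, on chromosome 3 at 37222759 to 37232636, spread widely between libraries. In treated CD3+CD8- libraries 11, 2 and 19 it had 233, 23.6 and 6.86 CPM, against 16.9, 2.62 and 2.43 CPM in untreated CD3+CD8- libraries 5, 18 and 6. The 972 counts of treated library 11 were the most of any library, and untreated library 5 lay above treated library 19, so the groups overlapped. In treated CD3-CD8- libraries 2, 11 and 19 it had 11.5, 25.4 and 3.08 CPM, against 0.409, 0.964 and 0.241 CPM in untreated CD3-CD8- libraries 1, 5 and 18, with no overlap. CD3+CD8+ cells had 9.01, 0.866 and 2.36 CPM in treated libraries 11, 2 and 19, against 0, 2.72 and 1.86 CPM in untreated libraries 1, 5 and 18, with overlap. As a description, the log2 fold change of treated over untreated was 4.37 (SE 0.82) in CD3-CD8- cells, 3.41 (SE 1.22) in CD3+CD8- cells and 0.97 (SE 0.96) in CD3+CD8+ cells. Treated library 11 was the highest for Il21 in all 3 treated fractions and untreated library 5 in all 3 untreated fractions; without treated library 11 the value in CD3+CD8- cells was 0.92 and in CD3+CD8+ cells -0.16, and without untreated library 5 it was 5.07 in CD3+CD8- cells and 2.32 in CD3+CD8+ cells.

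Il10 and Il21 levels had a Spearman correlation of 0.77 over the 18 libraries, a description, since libraries share treatment, fraction and possibly livers. Both genes were chosen for their treatment differences, so a positive correlation was built in and is not set against those of the other members. Library 11 of the treated CD3+CD8- group was highest for both. Their order within a group could differ: in treated CD3+CD8+ cells library 2 was highest for Il10 and lowest for Il21. With Maf the correlation was 0.69 for Il10 and 0.77 for Il21, and with Ifng 0.69 and 0.42. With Tnf it was 0.18 and 0.26, with Il4 0.12 and 0.31, with Csf2 -0.13 and 0.065 and with Il2 -0.27 and -0.15.

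**Figure D2:**
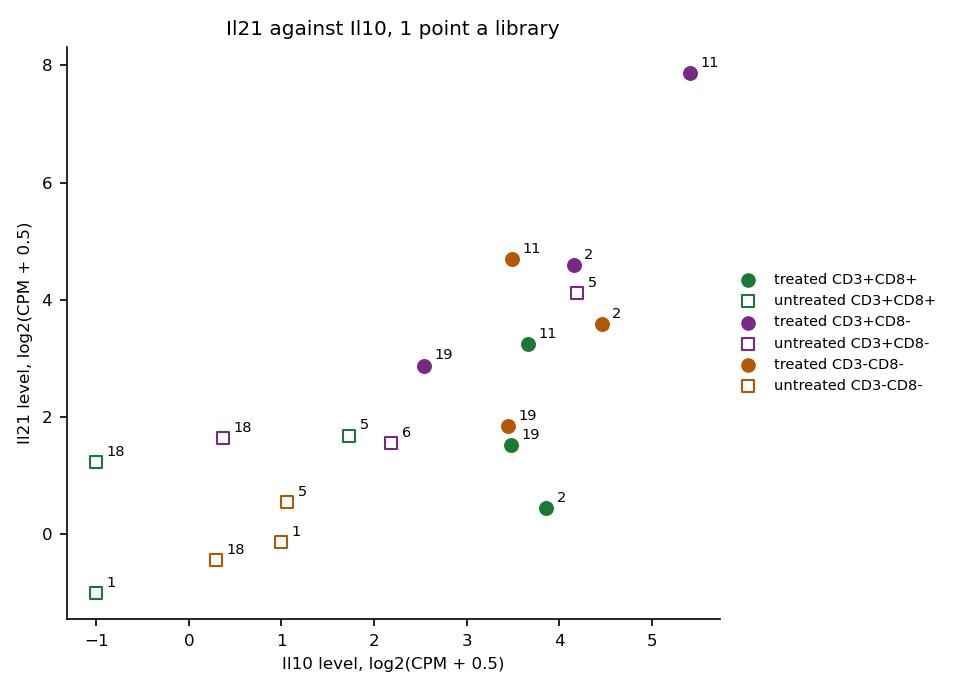
Il21 level on the vertical axis against Il10 level on the horizontal axis, both as log2(CPM + 0.5), 1 point a library with its number; filled circles are treated, open squares untreated, and colours are fractions. Treated CD3+CD8- library 11 stands at the top right at 233 CPM of Il21 and 42.2 CPM of Il10, and the treated CD3+CD8+ libraries, at 0.866 to 9.01 CPM of Il21, overlap the treated CD3-CD8- ones, at 3.08 to 25.4 CPM.

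Maf, on chromosome 8 at 115682942 to 115707794, rose with treatment in CD3-CD8- cells, the one call among the 6 members tested there. It had 59.4, 53.0 and 46.8 CPM in treated CD3-CD8- libraries 2, 11 and 19, against 31.5, 26.4 and 30.8 CPM in untreated libraries 1, 5 and 18. The log2 fold change was 0.81 (SE 0.16), with an adjusted p of 0.0141 in edgeR's quasi-likelihood test over all genes, and between 0.000487 and 0.361 over 12 alternatives. In that comparison 25.6% of 13781 tested genes were called, so that 1 call among 6 members is not above the background. Untreated library 5 weighed on it: without that library the adjusted p of Maf was 0.0621 and the number of genes called 239, against 3522 with it. That number was also 910 without treated library 2 and 1185 without treated library 19, and Maf had an adjusted p of 0.361 when all 18 libraries shared 1 fit.

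In CD3+CD8+ cells Maf had 52.4, 30.1 and 39.2 CPM in treated libraries 11, 2 and 19, against 13.9, 5.33 and 29.7 CPM in untreated libraries 1, 5 and 18. The groups did not overlap, though treated library 2 and untreated library 18 lay close. The log2 fold change was 1.50 (SE 0.58) with an adjusted p of 0.739, in a comparison where edgeR called 0% of 10654 genes, 624 had an unadjusted p below 0.05 and DESeq2 called 223. By group mean Maf was highest in CD3+CD8- cells, at 227, 112 and 63.6 CPM in treated libraries 11, 2 and 19, against 89.4, 54.8 and 18.6 CPM in untreated libraries 5, 18 and 6. There the groups overlapped, and the log2 fold change of 1.27 (SE 0.58) did not pass, with edgeR calling 0% of 11197 genes, 198 at an unadjusted p below 0.05 and DESeq2 calling 4. Over all tested genes, treated and untreated libraries did not overlap for 10% in CD3+CD8+ cells, 4.01% in CD3+CD8- cells and 45.4% in CD3-CD8- cells; among the 8 members this held for 2 in CD3+CD8+ cells, none in CD3+CD8- cells and 3 in CD3-CD8- cells.

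**Figure D3:**
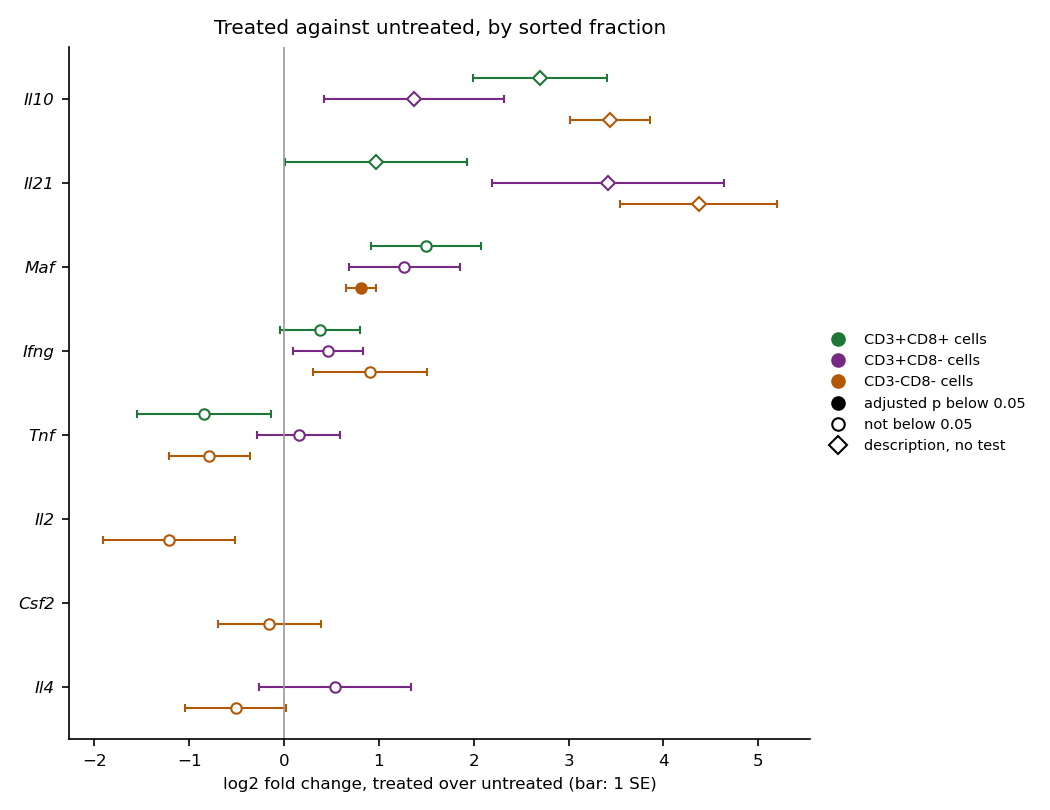
Log2 fold change of treated over untreated for each gene on the horizontal axis, with bars of 1 SE, in CD3+CD8+ (green), CD3+CD8- (purple) and CD3-CD8- (orange) cells. Diamonds mark Il10 and Il21, which carry no test; the filled circle is Maf in CD3-CD8- cells at 0.81, the only value with an adjusted p below 0.05, and genes with too few counts in a fraction have no point there.

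Ifng, the gene of IFN-gamma, was the most abundant of the 8 by FPKM in 17 of 18 libraries, and no treatment difference in it passed the test. It had between 32.0 and 110.99 CPM in treated CD3-CD8- libraries, against between 13.6 and 58.4 CPM in untreated ones, between 28.9 and 73.4 CPM in treated CD3+CD8+ libraries, against between 16.7 and 51.6 CPM, and between 32.3 and 76.3 CPM in treated CD3+CD8- libraries, against between 26.8 and 43.9 CPM. The log2 fold changes were 0.91 (SE 0.60), 0.38 (SE 0.42) and 0.46 (SE 0.37), and none passed the test, with an adjusted p of 0.293 in CD3-CD8- cells. Treated CD3-CD8- library 2 supplied the highest value, and without it the log2 fold change was 0.12.

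Tnf, on chromosome 17, had negative log2 fold changes in 2 fractions, neither of which passed the test. Treated CD3-CD8- libraries 2, 11 and 19 had 6.43, 4.57 and 5.77 CPM, against 17.0, 7.02 and 5.15 CPM in untreated libraries 1, 5 and 18, a log2 fold change of -0.79 (SE 0.42) with an adjusted p of 0.206. In CD3+CD8+ cells it was -0.84 (SE 0.70), and in CD3+CD8- cells 0.15 (SE 0.44). Set against Il10 within the same library, where no scaling enters, the ratio of Il10 to Tnf counts was between 1.80 and 3.35 in treated CD3-CD8- libraries, against between 0.0884 and 0.227 in untreated ones. It was between 2.38 and 4.29 in treated CD3+CD8+ libraries, against 0 and 0.267 in the 2 untreated ones with Tnf counts. In CD3+CD8- cells the ratios overlapped, at between 0.375 and 2.2 in treated and between 0.0316 and 0.811 in untreated libraries. Since Il10 was chosen for its treatment difference, nothing is read from the separation of its ratios to Tnf. The ratio of Tnf to Ifng counts, 2 genes that the choice of members did not use, was between 0.0579 and 0.18 in treated CD3-CD8- libraries, against between 0.255 and 0.379 in untreated ones, without overlap. It overlapped in the other fractions, at between 0.0550 and 0.143 in treated and 0 and 0.226 in untreated CD3+CD8+ libraries, and between 0.252 and 0.611 in treated and 0.221 and 0.931 in untreated CD3+CD8- libraries. The overlap in CD3+CD8+ cells rested on ribosome-rich untreated library 18, with 0 Tnf beside 9 Ifng counts. Untreated libraries 1 and 5, at 0.226 and 0.204, lay above every treated one. The ratios thus do not set CD3-CD8- cells apart from CD3+CD8+ cells. In CD3-CD8- cells 45.4% of single genes did not overlap in CPM, and the share of gene pairs whose ratio does not was not counted, so the Tnf to Ifng ratio is a description.

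Il2, Csf2 and Il4 were scarce. Il2, the T cell growth factor, had 1.84, 1.19 and 1.13 CPM in treated CD3-CD8- libraries 2, 11 and 19, against 7.16, 1.21 and 1.53 CPM in untreated libraries 1, 5 and 18. Its log2 fold change of -1.21 (SE 0.70) had an adjusted p of 0.234 and was 0.0030 without untreated library 1, the only high one. Csf2, which drives growth and activation of myeloid cells, had between 1.74 and 2.78 CPM in treated CD3-CD8- libraries, against between 1.29 and 4.91 CPM in untreated ones, a log2 fold change of -0.15 (SE 0.54). Il4 had between 2.75 and 5.27 CPM in treated CD3-CD8- libraries, against between 2.73 and 10.6 CPM, a log2 fold change of -0.51 (SE 0.53), and 0.54 (SE 0.80) in CD3+CD8- cells. Of the 3 untreated CD3-CD8- libraries, number 1 was the highest for Il2, Csf2, Il4, Tnf and Ifng alike.

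The neighbours Il21 and Il2 were set side by side within each library. Their count ratio, Il21 over Il2, was between 2.73 and 21.3 in treated CD3-CD8- libraries, against between 0.0571 and 0.80 in untreated ones. In CD3+CD8- cells it was between 5.61 and 139 in treated libraries, against between 1.25 and 11.5 in untreated ones, and in CD3+CD8+ cells between 0.714 and 4.92 in treated, against between 0 and 1.53 in untreated libraries, both with overlap. Since Il21 was chosen for its treatment difference, nothing is read from the separation of this ratio in CD3-CD8- cells. Of 5 other genes of that stretch tested in CD3-CD8- cells, 2 rose and none fell, in a comparison where 25.6% of all genes were called: Spata5 rose by 0.75 (SE 0.17) with an adjusted p of 0.0217 and Bbs12 by 1.20 (SE 0.32) with an adjusted p of 0.0318, on the log2 scale. Cetn4, at 1.18 (SE 0.44, adjusted p 0.0833), 4932438A13Rik, at 0.37, and Nudt6, at -0.32, did not pass. The IL-10 family genes beside Il10 were nearly silent, with 18 counts of Il19, 11 of Il20 and 38 of Il24 summed over the 18 libraries. Of 4 other neighbours of Il10 tested in CD3-CD8- cells, 1 fell and 0 rose. Fcmr fell by 1.14 (SE 0.27, adjusted p 0.0233) on the log2 scale. Mapkapk2, at -0.47 (SE 0.15, adjusted p 0.0556), Dyrk3, at -0.60, and Pigr, at -0.10, did not pass. Beside Il4, the type 2 cytokine genes Il13 and Il5 had 23 and 12 counts in all, and Il3, beside Csf2, had 6. Of 5 tested neighbours of Tnf, 2 fell in treated CD3-CD8- cells, Lta and Ltb, which encode lymphotoxins. On the log2 scale Lta fell by 1.35 (SE 0.25, adjusted p 0.0124) and Ltb fell by 1.64 (SE 0.29, adjusted p 0.0112).

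Since 7 of 9 T cell markers were called higher with treatment in CD3-CD8- cells, each member was also counted per 1000 counts of Cd3d, Cd3e and Cd3g, the CD3 chains of the T cell receptor. On that measure Il10 remained higher, at 7.87, 5.48 and 4.82 in treated CD3-CD8- libraries 2, 11 and 19, against 1.86, 2.42 and 2.53 in untreated libraries 1, 5 and 18. Il21 had 4.21, 12.99 and 1.43, against 0.506, 1.47 and 0.845, so that treated library 19 lay within the untreated range. The other 6 stood lower in every treated than in every untreated library, as 89.2% of all 13781 genes did on this measure, whose denominator was itself higher in treated cells, so that these 6 are not set apart from other genes. The share of genes higher in every treated library was 0.167%, from which nothing is read for Il10, a gene chosen for its treatment difference. Tnf had between 2.34 and 2.68 in treated libraries, against between 10.7 and 21.0 in untreated ones, and Il4 between 1.28 and 1.93, against between 5.25 and 13.2. Ifng had between 14.9 and 40.5, against between 41.9 and 72.2, the narrowest gap. Maf, called higher in CPM, had between 21.7 and 27.1, against between 38.9 and 108, the opposite direction.

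**Figure D4:**
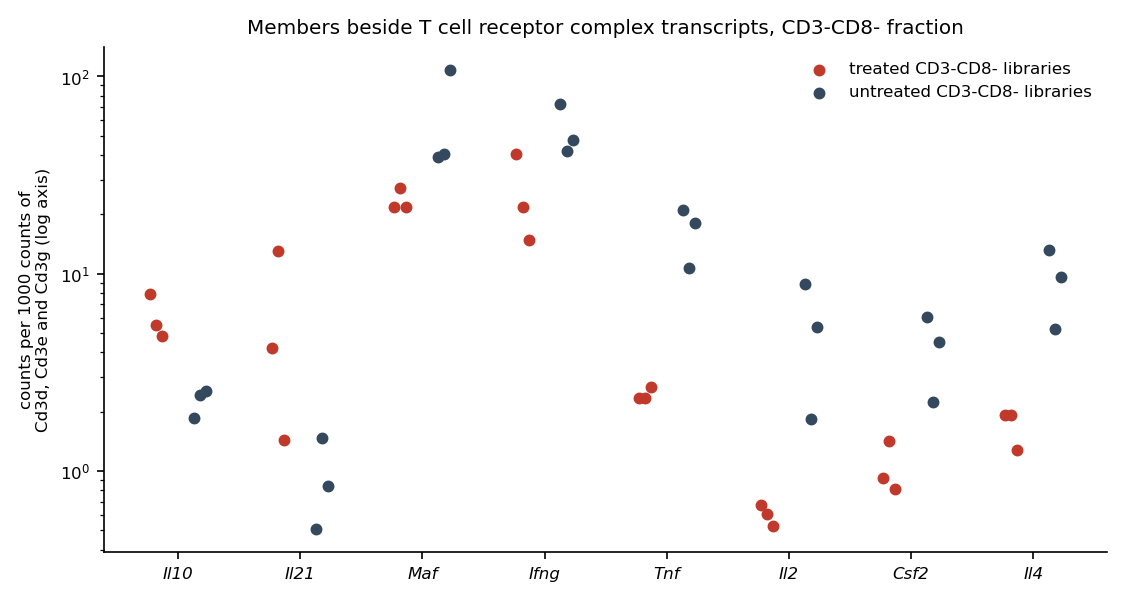
Counts of each gene per 1000 counts of Cd3d, Cd3e and Cd3g in CD3-CD8- libraries, on a log axis; red points are treated and dark blue points untreated libraries. Treated libraries lie above untreated ones for Il10, overlap them for Il21 and lie below them for Maf, Ifng, Tnf, Il2, Csf2 and Il4, as they do for 89.2% of all genes.

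With Trac, Trbc1 and Trbc2 as the denominator the treated CD3-CD8- libraries stayed above the untreated ones for Il10 and were above them for Il21 too, and stayed below them for Tnf, Il2, Csf2 and Il4, while Ifng and Maf overlapped; on that measure 0.508% of all genes stood above and 77.2% below. In CD3+CD8+ cells Il10 per 1000 CD3 counts was 4.92, 5.72 and 6.00 in treated libraries 11, 2 and 19, against 0, 1.66 and 0 in untreated libraries 1, 5 and 18. The 2 zeros came from ribosome-rich libraries, in which 1 count, as Csf2 had, read as 1.17 in library 1 and 3.18 in library 18. A count of 0 allows up to 3 counts, so the 0 of library 18 does not place it below the treated libraries. Il2 was lower there, at between 0.270 and 0.944 in treated libraries, against between 1.04 and 4.67 in untreated ones, from no more than 17 Il2 counts a library, and the groups overlapped with the receptor genes as the denominator. Over all genes in CD3+CD8+ cells 0.441% stood higher and 32.8% lower per CD3 count in every treated library. In CD3+CD8- cells all 8 members overlapped on this measure. These ratios are descriptions with no test, and macrophages and B cells, which can also make Il10, are not in the denominator.

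Between fractions, with treated and untreated libraries averaged, Il4, Maf, Tnf and Il21 were lower in CD3+CD8+ than in CD3+CD8- cells. These were 4 of 8 members, in a comparison where 7.69% of 13181 genes were called. The averages include the treated values for which Il10 and Il21 were chosen. Fraction p-values of these genes are therefore not free of that choice, and nothing is read from the count of members called. Il4 was at or below 1 count in every CD3+CD8+ library, with 1, 0 and 1 counts in treated libraries 11, 2 and 19 and 1, 1 and 0 counts in untreated libraries 1, 5 and 18, and its log2 fold change against CD3+CD8- cells, a fitted value and no bound at such counts, was -5.00 (SE 0.87, adjusted p 0.00123). The log2 fold change was -1.88 for Maf (SE 0.42, adjusted p 0.00829) and -1.79 for Tnf (SE 0.41, adjusted p 0.0109). For Il21 it was -3.17 (SE 0.93, adjusted p 0.0461), a call that rested on single libraries. It was lost without any 1 of 11 libraries, with adjusted p-values between 0.0504 and 0.254: treated CD3+CD8+ 2 and 19, untreated CD3+CD8+ 1, 5 and 18, treated CD3+CD8- 11, untreated CD3+CD8- 5, treated CD3-CD8- 2 and untreated CD3-CD8- 1, 5 and 18. Without the 3 ribosome-rich libraries the adjusted p was 0.172 for Il21 and 0.0762 for Tnf, while Il4 and Maf kept their calls. Scaled to library totals alone, Tnf had an adjusted p of 0.0623, and Il21 had 0.0765 when the libraries of the 2 fractions alone were fitted. The 5 neutrophil markers summed to between 34.7 and 778 CPM in CD3+CD8+ libraries, beside 2682 to 28656 CPM in CD3+CD8- libraries, and the markers of monocytes and macrophages to between 360.02 and 1331 CPM, beside 2168 to 4844 CPM; their part in these differences was not tested.

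Against CD3-CD8- cells, CD3+CD8+ cells were lower in Il4, with a log2 fold change of -5.29 (SE 0.85, adjusted p 0.000734), the only member called where 12.8% of genes were. Csf2 came near, at -1.57 (SE 0.51, adjusted p 0.0508), and passed without treated CD3+CD8+ 19, treated CD3+CD8- 2 or 11, untreated CD3+CD8+ 18 or untreated CD3-CD8- 5 or 18, with adjusted p-values between 0.0316 and 0.0479. It also passed in DESeq2 (0.0498), with DESeq2's size factors (0.0491), scaled to library totals (0.0334), with the 2 fractions alone (0.0453) and without the 3 ribosome-rich libraries (0.0430), and over 25 alternatives its adjusted p ran up to 0.164, without untreated CD3+CD8+ 5. CD3+CD8- cells stood above CD3-CD8- cells in Il21, with a log2 fold change of 3.22 (SE 0.84, adjusted p 0.0254), and in Tnf, with 1.43 (SE 0.39, adjusted p 0.0301), 2 of 8 members where 8.13% of genes were called. Since the treated values for which Il21 was chosen enter this average, nothing is read from the count of 2 calls. Both calls were lost without treated CD3-CD8- 2 or 19, untreated CD3+CD8- 5 or untreated CD3-CD8- 5 or 18; that of Il21 also without treated CD3+CD8- 11 or untreated CD3-CD8- 1, and that of Tnf without treated CD3+CD8- 2, treated CD3-CD8- 11 or untreated CD3+CD8- 18, with adjusted p-values between 0.0533 and 0.182. Scaled to library totals alone, Tnf had an adjusted p of 0.798. The number of genes called was 614 without treated CD3-CD8- 19 and 624 without untreated CD3-CD8- 5, against 1071 with all. Maf, at 1.11 (SE 0.38), and Il10, at 1.60 (SE 0.57), did not pass, with adjusted p-values of 0.0884 and 0.105. Maf passed without untreated CD3+CD8- 6, the library with CD8 transcripts, at 0.0298, and Il10 without untreated CD3+CD8- 18, at 0.0404. Both also passed without a filter on low counts, and Maf with library number as a replicate block, as given in the closing section. Ifng had log2 fold changes of -0.02, -0.05 and -0.03 in the 3 comparisons, with SEs of 0.39 to 0.40. The 5 neutrophil markers summed to between 9446 and 28656 CPM in treated and 2682 and 14251 CPM in untreated CD3+CD8- libraries, beside 527 to 18806 CPM in treated and 113 to 753 CPM in untreated CD3-CD8- libraries, and their part in the Tnf difference was not tested.

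**Figure D5:**
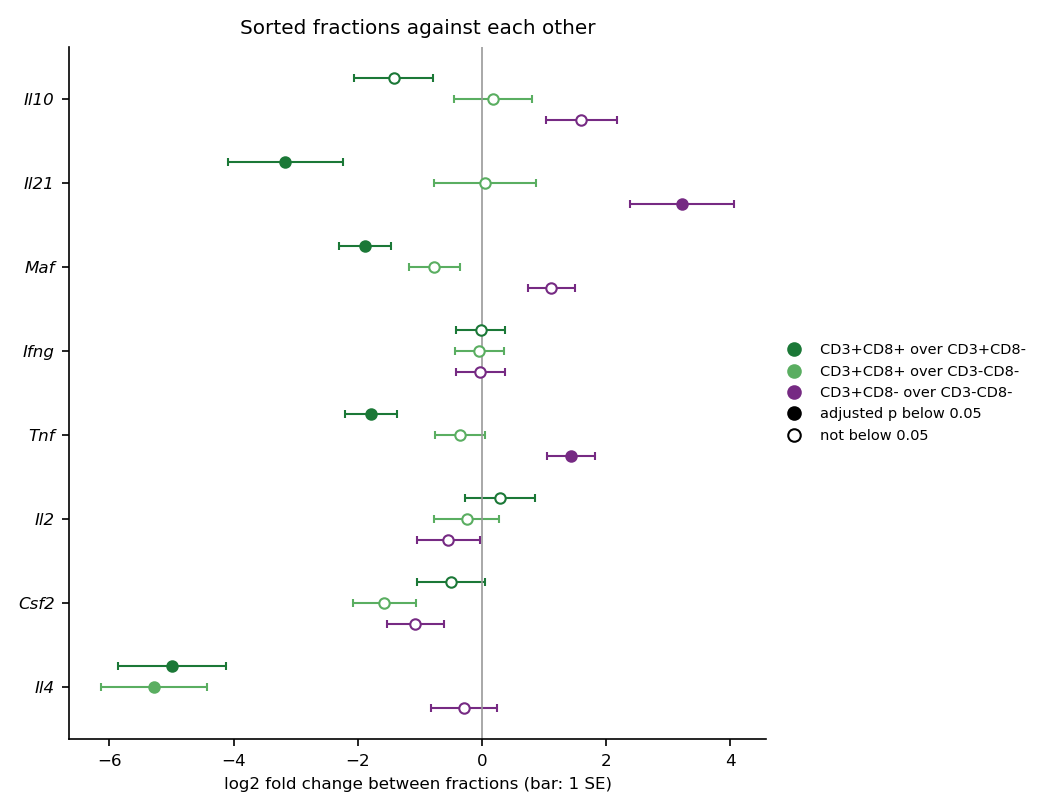
Log2 fold change between sorted fractions, averaged over treatment, on the horizontal axis with bars of 1 SE. Filled circles have an adjusted p below 0.05: Il4 in both comparisons of CD3+CD8+ cells, Maf, Tnf and Il21 in CD3+CD8+ over CD3+CD8- cells, and Il21 and Tnf in CD3+CD8- over CD3-CD8- cells.

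Whether treatment acted differently in the fractions was asked with interaction contrasts. No gene was called in edgeR in any of the 3, 0% of 13181 genes, with 515 genes at an unadjusted p below 0.05 for CD3-CD8- minus CD3+CD8+ cells, 503 for CD3-CD8- minus CD3+CD8- cells and 478 for CD3+CD8- minus CD3+CD8+ cells. DESeq2 called 1, 26 and 142 genes in the same order. Differences between fractions in the treatment values of Maf, Ifng, Tnf, Il2, Csf2 and Il4 therefore did not pass, and those of Il10 and Il21 were not tested.

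Levels of different genes were set side by side per transcript length, in the FPKM values deposited by the authors. Ifng ranked first of the 8 in 17 of 18 libraries, and Il21 in the other, treated CD3+CD8- library 11, where it had 86.8 FPKM beside 75.4 FPKM of Ifng. In treated CD3-CD8- cells the medians were 34.2 FPKM for Ifng, 9.99 for Maf, 8.43 for Il10, 7.12 for Il4, 4.43 for Il21, 3.96 for Csf2, 3.86 for Tnf and 1.36 for Il2. In untreated CD3-CD8- cells they were 29.6 FPKM for Ifng, 6.83 for Il4, 6.31 for Maf, 5.32 for Tnf, 2.53 for Csf2, 1.71 for Il2, 1.37 for Il10 and 0.133 for Il21. By these medians Il21 was last of the 8 in untreated cells of that fraction and above Csf2, Tnf and Il2 in treated ones. By library that order held in treated library 11 alone: Il21 had 4.43 FPKM in treated library 2, below Csf2 and Tnf, and 1.02 FPKM in treated library 19, below all 3.

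The order of groups by mean CPM had few gaps between neighbours. Il10 ran from 21.6 ± 18.8 CPM in treated CD3+CD8- cells over 14.2 ± 6.36 in treated CD3-CD8- and 12.3 ± 1.68 in treated CD3+CD8+ to 7.56 ± 9.06 in untreated CD3+CD8-, 1.27 ± 0.477 in untreated CD3-CD8- and 0.940 ± 1.63 in untreated CD3+CD8+ cells (SD, n = 3 each), and the ranges of neighbouring groups in that order overlapped throughout. The same overlap of neighbours held for Il21, Ifng, Tnf, Il4 and Maf. For Il2 the one gap lay between untreated CD3+CD8+ at 2.89 ± 1.86 CPM and treated CD3+CD8- cells at 1.48 ± 0.235 CPM. Untreated CD3+CD8+ libraries 1, 5 and 18 had 4, 17 and 1 Il2 counts, and 3 counts read as 3.78 CPM in library 1 and 5.57 CPM in library 18. For Csf2 the gap lay between treated CD3-CD8- at 2.35 ± 0.541 CPM and untreated CD3+CD8- cells at 1.29 ± 0.0673 CPM, the latter from 11, 5 and 3 counts in libraries 5, 18 and 6. At such counts nothing is read from either gap.

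Of 14 receptor genes of these cytokines tested in CD3-CD8- cells, 1 rose and 4 fell with treatment, in a comparison where 25.6% of all genes were called; without untreated library 5 the genes called numbered 239. Their median log2 fold change was -0.44, beside -0.06 over all genes. Il4ra, the IL-4 receptor, had 50.9 ± 9.25 CPM in treated and 132 ± 14.6 CPM in untreated cells, a log2 fold change of -1.40 (SE 0.18, adjusted p 0.00832). Both chains of the IFN-gamma receptor fell, Ifngr1 by 0.80 (SE 0.19, adjusted p 0.0244) and Ifngr2 by 0.95 (SE 0.26, adjusted p 0.0365), and the TNF receptor gene Tnfrsf1b rose by 0.58 (SE 0.14, adjusted p 0.0267). Il10ra, named after its values were seen, did not pass and had 226 ± 36.0 CPM in treated and 156 ± 29.1 CPM in untreated cells, a log2 fold change of 0.51 (SE 0.20, adjusted p 0.0987). Of 6 markers of B cells, which carry several of these receptors, 5 were called lower in the same cells, and their part in the receptor values was not tested.

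Of 18 transcriptional inducers of the members, Maf included, 3 rose and 1 fell in treated CD3-CD8- cells, with a median log2 fold change of 0.23 beside -0.06 over all genes; with 25.6% of all genes called, 4 of 18 is not above the background. Prdm1, which encodes Blimp-1, a factor known to act with c-Maf on Il10, had 45.3 ± 8.03 CPM in treated and 14.2 ± 4.41 CPM in untreated cells, a log2 fold change of 1.65 (SE 0.25, adjusted p 0.00915). Eomes, the T-box factor of cytotoxic and some type 1 regulatory cells, rose by 1.38 (SE 0.33, adjusted p 0.0229). Bcl6, the factor of follicular helper and germinal centre B cells, fell by 0.94 (SE 0.22, adjusted p 0.0235). In CD3+CD8+ cells none of the 18 passed; Prdm1 and Eomes had log2 fold changes of 1.68 (SE 0.30, adjusted p 0.273) and 1.38 (SE 0.34, adjusted p 0.405). In CD3+CD8- cells none of the 18 passed either, and Prdm1 had 0.93 (SE 0.32, adjusted p 0.9998). The markers of 2 T cell states known to make these cytokines gave mixed counts in CD3-CD8- cells: of 5 for type 1 regulatory T cells 3 rose and 1 fell, and of 6 for follicular helper T cells 1 rose and 2 fell, where 25.6% of all genes were called, 1407 higher and 2115 lower.

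Genes known to respond to the cytokines did not move as 1 block in CD3-CD8- cells. Of 12 tested IFN-gamma targets 2 rose, Irf1 by 0.72 (SE 0.19, adjusted p 0.0302) and Gbp5 by 0.69 (SE 0.19, adjusted p 0.0343), and Ciita, the regulator of MHC class II genes that B cells also use, fell by 1.52 (SE 0.16, adjusted p 0.00732). Of 10 tested TNF targets 3 fell and none rose, among them Nfkb2 at 16.9 ± 2.25 CPM in treated and 61.5 ± 15.2 CPM in untreated cells, a log2 fold change of -1.88 (SE 0.20, adjusted p 0.00732). Of 11 STAT3 targets 1 rose, Prdm1, and 6 fell, among them Sbno2 by 1.41 (SE 0.18, adjusted p 0.00849) and Pim1 by 0.62 (SE 0.12, adjusted p 0.0143). Of 11 targets of IL-2, IL-4 and GM-CSF 1 rose and 4 fell, the IL-4 target Retnla by 3.71 (SE 0.53, adjusted p 0.00905). Among 18 tested genes of other cytokines 4 rose and 6 fell; Fasl, a killing ligand of T and NK cells, rose by 1.89 (SE 0.35, adjusted p 0.0123) and Tgfb1 fell by 1.18 (SE 0.14, adjusted p 0.00826). In CD3+CD8+ and in CD3+CD8- cells 0% of all genes were called, so no list could hold a called gene there. With 25.6% of all genes called in CD3-CD8- cells, these counts are a description of the lists.

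The genes whose levels followed Il10 most closely over the 18 libraries, out of 11272, were Rgs16, a regulator of G protein signalling in activated lymphocytes, at a Spearman correlation of 0.97, then Sult6b1 at 0.89, Map2 at 0.87 and Itgb8 and Nlrp1b at 0.87. Rgs16 had 19.3 ± 2.98 CPM in treated and 5.47 ± 6.49 CPM in untreated CD3+CD8+ cells, 23.3 ± 9.96 CPM in treated and 12.6 ± 10.4 CPM in untreated CD3+CD8- cells, and 16.7 ± 6.24 CPM in treated and 6.29 ± 5.08 CPM in untreated CD3-CD8- cells. Those nearest Il21 were Slc22a15 at 0.81, Itgb8, an integrin chain that activates latent TGF-beta, at 0.80, and Dubr, S100a11 and Ptger2 at 0.79. Itgb8 thus stood among the 5 nearest genes of both. Nearest to Maf were Fam129a at 0.91, Tbc1d4 at 0.87, Fgl2 at 0.86, Dram1 at 0.85 and Stfa1 at 0.84, and nearest to Ifng was Zfp58 at only 0.80. These are descriptions over libraries that share treatment, fraction and possibly livers, and Il10 and Il21 were chosen for their treatment differences. Sult6b1 had no more than 3.09 CPM in any library, while 3 counts read as 3.78 and 5.57 CPM in untreated CD3+CD8+ libraries 1 and 18. The part of depth in the ranks of such low genes was not tested.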

How the data were processed

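RNA was sequenced from CD45+ liver cells of 6 groups of 3 libraries, with groups taken from the treatment and cell labels. The authors deposited whole-number counts per gene and FPKM values per gene; the FPKM table gives a symbol and a position for each identifier. Per the submitters' processing notes, the tools included HTSeq 0.13.5 and Cufflinks 2.2.1, next to Trim Galore 0.6.7 and DESeq2 3.20, with no role stated; for the aligner and the build, an entry was not given in the sources used here. Of 40 library columns, 22 were not used. Symbols were found for 48242 of 48440 identifiers, and 13181 genes passed the filter over 18 libraries. One treated CD3+CD8- library whose name repeats a digit was taken as number 11.

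Counts were tested with edgeR 4.0.16 in R 4.3.3: filterByExpr, TMM scaling and the two-sided quasi-likelihood test with Benjamini-Hochberg adjustment over all genes that passed the filter, with a threshold of 0.05. Treatment was fitted in the 6 libraries of a fraction; fractions and interactions in all 18 as 6 groups. Without strand information, overlapping genes cannot be told apart. A count of 0 allows up to 3 counts, and such floors cover counting error only. The fits were tested on simulated data. DESeq2 1.42.0 was an alternative; the GC content correction was added after seeing the data. Members and lists were chosen with earlier results of these data known. All members are named; from each list, up to 4 called genes of smallest adjusted p were eligible, and for likeness the 5 genes of highest Spearman correlation.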

Additional observations from a re-analysis of the deposited data

How the results depend on the processing

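Depth limits Il2, Csf2 and Il4 in the CD3+ fractions and every low gene in the 3 ribosome-rich libraries. The calls for Il4 and Maf between CD3+CD8+ and CD3+CD8- cells held under all alternatives run. For each value below that changed, the cause was not tested. Leaving out each library in turn gave ranges of genes called of 614 to 1565 for CD3+CD8- against CD3-CD8- cells, 0 to 180 for treatment in CD3+CD8+ cells (180 without untreated library 5), 0 to 0 in CD3+CD8- cells and 239 to 3183 in CD3-CD8- cells, and for interactions 0 to 127 for CD3+CD8- minus CD3+CD8+ cells and 0 to 2 for CD3-CD8- minus CD3+CD8+ cells. DESeq2 called 1650 genes for CD3+CD8- against CD3-CD8- cells, 223 and 4 for treatment in CD3+CD8+ and CD3+CD8- cells, and 142, 1 and 26 for the interactions CD3+CD8- minus CD3+CD8+, CD3-CD8- minus CD3+CD8+ and CD3-CD8- minus CD3+CD8-. Library totals alone gave 406 for CD3+CD8- against CD3-CD8- cells, 5, 7 and 2045 for treatment in CD3+CD8+, CD3+CD8- and CD3-CD8- cells, and 85 and 37 for the interactions CD3+CD8- minus CD3+CD8+ and CD3-CD8- minus CD3+CD8-. That scaling moved the median log2 value of all genes to 1.17, -0.53 and -0.17 for treatment in CD3+CD8+, CD3+CD8- and CD3-CD8- cells. No filter gave 1963 for CD3+CD8- against CD3-CD8- cells, 380 and 195 for treatment in CD3+CD8+ and CD3+CD8- cells, and 384, 171 and 160 for the interactions in the order given for DESeq2. One fit of all 18 libraries gave 15 and 76 for treatment in CD3+CD8+ and CD3-CD8- cells, and the GC content correction 500 in CD3-CD8- cells.

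Treated and untreated libraries share no number, so a replicate block could be fitted for fractions and interactions alone. Of 16 pairs with the same number, 14 had correlated deviations over 0.1 (median 0.35), against 6 of 38 other pairs (median -0.13), which does not pair the libraries by design. The replicate block gave 2233 genes for CD3+CD8- against CD3-CD8- cells, 1417 for CD3+CD8+ against CD3+CD8- cells, 2295 for CD3+CD8+ against CD3-CD8- cells and 0 for each interaction. Under the replicate block log2 values were 0.045 for Ifng, -0.11 for Il10 and -0.11 for Il21 in CD3+CD8+ against CD3-CD8- cells, -0.24 for Il2 in CD3+CD8+ against CD3+CD8- cells, and 0.27, 0.16 and 0.25 for Ifng, Il2 and Il4 in CD3+CD8- against CD3-CD8- cells, the opposite sign each time; none was called. Maf in CD3+CD8- against CD3-CD8- cells passed under it, at an adjusted p of 0.0195.

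Other signs turned as follows, in log2 values that were never called. Library totals gave -0.22 and -0.37 for Il10 and Il21 in CD3+CD8+ against CD3-CD8- cells, -0.13 for Il2 in CD3+CD8+ against CD3+CD8- cells, 0.090 for Tnf with treatment in CD3+CD8+ cells and -0.047, -0.14 and -0.60 for Ifng, Il4 and Tnf with treatment in CD3+CD8- cells. For CD3+CD8+ against CD3-CD8- cells DESeq2 gave -0.00591 for Il10 and -0.090 for Il21, and for Il21 its size factors gave -0.00366 and the 2 fractions alone -0.00788. No filter gave 0.014 for Ifng in CD3+CD8+ against CD3+CD8- cells. Without the 3 ribosome-rich libraries Ifng had 0.21 in CD3+CD8+ against CD3+CD8- cells, 0.15 in CD3+CD8+ against CD3-CD8- cells and -0.021 with treatment in CD3+CD8+ cells, and Tnf -0.22 with treatment in CD3+CD8- cells. Leaving out single libraries gave ranges of -0.24 to 0.13, -0.29 to 0.27 and -0.25 to 0.32 for Ifng in CD3+CD8+ against CD3+CD8-, CD3+CD8+ against CD3-CD8- and CD3+CD8- against CD3-CD8- cells, and for Il2 in the same order -0.092 to 0.52, -0.67 to 0.32 and -0.76 to 0.041. They were -3.65 to 0.33 for Il10 and -0.72 to 0.41 for Il21 in CD3+CD8+ against CD3-CD8- cells, and -0.999 to 0.086 for Il4 in CD3+CD8- against CD3-CD8- cells. For treatment they were -0.16 to 2.32 for Il21 in CD3+CD8+ cells, -0.22 to 0.39 for Tnf in CD3+CD8- cells, and -1.67 to 0.0030, -0.85 to 0.28 and -0.48 to 0.67 for Il2, Il4 and Csf2 in CD3-CD8- cells. With Trac, Trbc1 and Trbc2 as the denominator the log2 ratio of treated over untreated CD3-CD8- cells was 2.04 for Il10 and -2.13 for Tnf, against 1.41 and -2.76 with the CD3 chains. Without a filter, Ifng passed for treatment in CD3-CD8- cells (adjusted p 0.000258) and Maf in CD3+CD8+ cells (adjusted p 0.0351), and between fractions Il10 in CD3+CD8+ against CD3+CD8- cells (0.00267) and in CD3+CD8- against CD3-CD8- cells (8.65e-05), and Maf in CD3+CD8- against CD3-CD8- cells (0.00172) and in CD3+CD8+ against CD3-CD8- cells (0.0362).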
